A study of Mus musculus with 2 samples.

Results

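The genes described here mark the epithelium of the intestine and the stomach: Vil1, Cdh17, Cdx1, Cdx2, Lgr5, Lgals4, Tff1, Tff2 and Tff3. The samples were tumours under the skin of mice that had been injected with Panc02, a line of mouse pancreatic cancer cells. Members were chosen by name, including older aliases, among the spots of the array that are not controls, and the 9 genes stand beside 20855 genes measured in all. They were picked with earlier results of these data in view, so their differences are a description and carry no test. The 9 genes had 12 probes, of which 10 were well above background on both arrays. These 10 probes covered 8 genes, and Cdx1 was not well above background on either array.

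The enriched environment pool held RNA from tumours of 6 C57BL/6 mice kept in housing that offers more stimulation, and the standard environment pool held RNA from tumours of 6 C57BL/6 mice in ordinary caging. Mice of both groups entered their housing at 3 weeks of age, received the same Panc02 cells under the skin and stayed in that housing for 5 further weeks. The labels call the tumour a xenograft although cells and hosts are both mouse, and the tumour grew outside the pancreas. RNA of the mice of a group was pooled before labelling and hybridised to 1 array with Cy3, so the values hold no spread between mice and a test of housing was not possible. In tumour pieces, a smaller share of cells of a type and less RNA per cell cannot be told apart.

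The epithelium of the gut is set up by the homeodomain factors Cdx1 and Cdx2, which switch on genes of the absorptive surface and keep the gastric programme off. Vil1 (villin) bundles the actin of microvilli, Cdh17 is the cadherin that joins intestinal cells, and Lgals4 is a galectin of the apical membrane of gut epithelium. Lgr5 is a receptor for R-spondins, which amplify Wnt signals, and marks the stem cells of the crypt. The trefoil factors are small secreted peptides that protect and repair mucosa, with Tff1 made mainly by gastric surface cells, Tff2 by mucous neck cells of the stomach and glands of the duodenum, and Tff3 by goblet cells. Tumours of the pancreatic duct often carry genes of stomach and gut.

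Promoter sequence could be shown for 3 of the 9 members from RefSeq (build GRCm38.p6). These are the 250 bases before the annotated start, given 5′ to 3′ on the strand of the gene, and they are shown because all 3 genes were higher together in the enriched environment pool. Both strands were searched for 6 motifs, which were chosen with the sequences in view. The core bound by CDX factors was TTTAT. The octamer bound by POU factors was ATGCAAAT. For HNF4 and TCF factors the core was CAAAG. The general promoter elements were the CCAAT box and the TATA box, searched as TATAAA. The CArG box, bound by serum response factor, was searched by its usual consensus. Capitals mark the matches.
Cdx2, chr5:147307250-147307499, minus strand: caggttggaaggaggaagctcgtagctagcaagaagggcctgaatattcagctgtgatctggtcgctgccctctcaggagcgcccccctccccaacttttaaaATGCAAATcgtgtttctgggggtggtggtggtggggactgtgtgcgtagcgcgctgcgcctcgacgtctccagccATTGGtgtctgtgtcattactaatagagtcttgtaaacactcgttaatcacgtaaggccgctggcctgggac
Vil1, chr1:74409134-74409383, plus strand: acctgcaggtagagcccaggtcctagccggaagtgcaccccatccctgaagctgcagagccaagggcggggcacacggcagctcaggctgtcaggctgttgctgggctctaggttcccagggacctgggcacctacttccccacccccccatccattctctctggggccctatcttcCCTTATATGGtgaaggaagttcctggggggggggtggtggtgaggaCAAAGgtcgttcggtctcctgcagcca
Lgals4, chr7:28833544-28833793, plus strand: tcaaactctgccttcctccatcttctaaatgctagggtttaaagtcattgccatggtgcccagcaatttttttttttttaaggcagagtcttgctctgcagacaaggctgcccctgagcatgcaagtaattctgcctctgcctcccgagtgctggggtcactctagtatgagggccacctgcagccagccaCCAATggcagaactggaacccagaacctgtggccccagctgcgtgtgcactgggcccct

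The Cdx2 window held the octamer 147 to 140 bases before the start and a CCAAT box on the opposite strand 72 to 68 bases before it. Among 32851 promoters of the same length, the octamer was found in 1.6% and the CCAAT box in 33.8%. The Vil1 window held a CArG box 73 to 64 bases before the start, found in 1.47% of promoters, and CAAAG 27 to 23 bases before it, found in 48.6%. Lgals4 held a CCAAT box 59 to 55 bases before the start, in a window that lies inside the annotated gene because another annotated start is upstream. No motif of the set was common to all 3 windows. TTTAT, present in 37.3% of promoters, and TATAAA, present in 12.4%, were not in these windows, which says nothing of more distant sites.

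Levels are log2 values of intensity over the 75th percentile of the spots used on an array, which leave out controls and outliers. Differences subtract the level in the standard from that in the enriched environment pool, so that positive values are higher with enrichment. The 8 measured members comprised 6 that were higher by 2-fold or more in the enriched environment pool, 0 that were lower by as much and 2, Tff1 and Tff3, that were less than 2-fold apart. Over all 20855 measured genes, 5.73% were higher by 2-fold or more and 9.46% lower by as much, shares that stand here as background only because the members were chosen with these values known. The median difference was 2.49 over the members and 0.03 over all measured genes. With 1 array per pool these counts have no replicate check. The error given with a difference below is the error that the scanner software's model assigns to the 2 spots, propagated to the difference, and it covers technical error only.

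**Figure D1:**
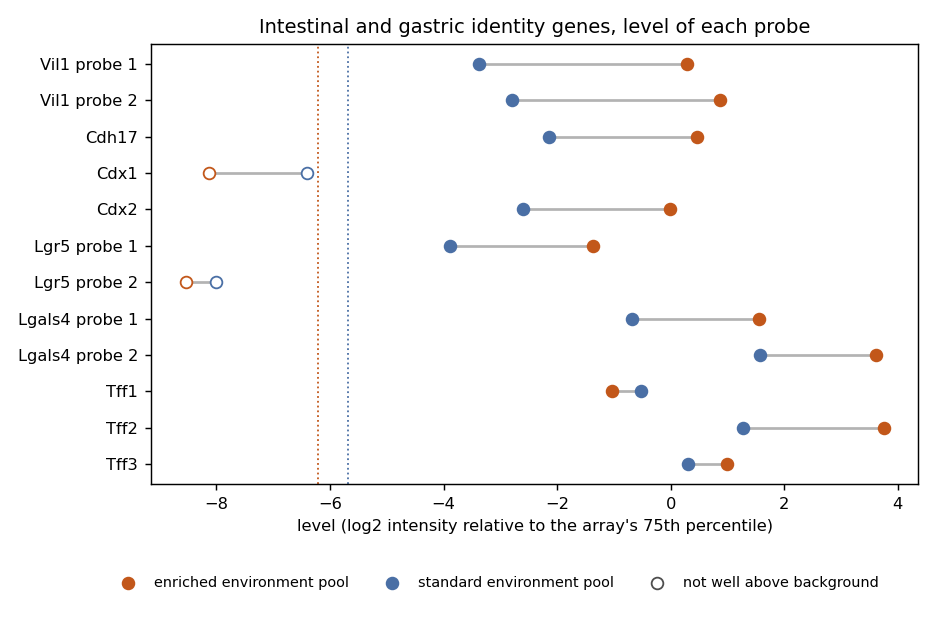
Level of each of the 12 member probes (x axis, log2 of intensity over the array's 75th percentile) in the enriched environment pool (orange) and the standard environment pool (blue). Open points were not well above background, and dotted lines mark the lowest level well above background on each array. In all probes of Vil1, Cdh17, Cdx2, Lgals4 and Tff2 and in the first Lgr5 probe the orange point lies to the right, whereas for Tff1 it lies to the left.

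The transcription factors differed in detection. The Cdx2 probe (chromosome 5, 146195375 to 146195434 on mm7, as all probe positions here) had an intensity of 969.5 in the enriched environment pool and 123.6 in the standard environment pool. Its levels were -0.02 and -2.61 in the same order of pools, a difference of 2.59 (error 0.21) or 6-fold, and the standard environment signal was 8.45 times the lowest signal well above background on that array. Cdx2 was therefore measured with a margin on both arrays. Cdx1, its close relative in the gut, had intensities of 3.504 in the enriched and 8.927 in the standard environment pool, both not well above background, so that no fold can be given. Cdx4, the remaining caudal gene, was not well above background on either array.

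Vil1 had the largest difference of the members. Its first probe (chromosome 1, 74675081 to 74675140) had intensities of 1204 in the enriched and 72.21 in the standard environment pool, and its second probe (74675061 to 74675120) of 1790 in the enriched and 108.6 in the standard environment pool. The probes differed by 3.67 and 3.66, or 12.8-fold and 12.6-fold. They overlap over most of their length, so their agreement is that of repeated spots and not of separate parts of the transcript. The mean difference of 3.67 (error 0.15) was the 19th highest of 20855 genes. Cdh17 (chromosome 4, 11744272 to 11744331) had intensities of 1350 in the enriched and 171.1 in the standard environment pool, a difference of 2.59 (error 0.21) or 6.04-fold, with rank 92.

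Lgals4 was measured by a pair of probes that do not overlap. One probe (chromosome 7, 25775797 to 25775856) had an intensity of 12052 in the enriched and 2233 in the standard environment pool, a difference of 2.05 or 4.13-fold. The other probe, whose position spans 252 bases from 25775064 to 25775315 and so is not continuous in the genome, had 2903 in the enriched and 472.2 in the standard environment pool, a difference of 2.23 or 4.71-fold. Both probes put Lgals4 higher in the enriched environment pool, with a mean of 2.14 (SD between probes 0.13). Lgals6 is a near-identical copy of Lgals4 in some mouse strains, and its probe differed by 2.11. In the gene order of GRCm38.p6 the genes with a probe next to Lgals4 were Ech1 and Lgals7, not Lgals6. Whether the mice or cells carried Lgals6, or its probe reported Lgals4 RNA, was not tested. The signals of the 2 genes cannot be separated with certainty here.

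The stem cell receptor gene Lgr5 was measured by 1 of its 2 probes. This probe (chromosome 10, 114958025 to 114958084) had an intensity of 379.8 in the enriched and 51.04 in the standard environment pool, with levels of -1.37 and -3.88 and a difference of 2.51 (error 0.22) or 5.7-fold. The standard environment signal was 3.49 times the lowest signal well above background, the smallest margin of the 6 members. The other probe (114969864 to 114969923), designed on a cDNA clone from embryonic head, had intensities of 2.64 and 2.925 in the enriched and the standard environment pool, both not well above background. Averaging this probe in would lower the Lgr5 difference to 0.99, under 2-fold, and the normexp background correction gave 1.64.

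The trefoil genes lie side by side on chromosome 17, and the probes that carry their names did not share a difference. Tff2 (29337525 to 29338349, a span longer than the probe) had an intensity of 13211 in the enriched and 1818 in the standard environment pool, a difference of 2.48 (error 0.20) or 5.57-fold. Tff3 (29320548 to 29320607) had 1966 in the enriched and 929.7 in the standard environment pool, a difference of 0.69 or 1.62-fold, and Tff1 (29356574 to 29356633) had 482.3 in the enriched and 526.6 in the standard environment pool, a difference of -0.51 (error 0.20 each). Within the arrays, where scaling plays no part, the ratio of Tff2 to Tff3 was 3.44 times as high in the enriched as in the standard environment pool. The Tff1 value is uncertain. Another probe, AK050258, whose annotation describes trefoil factor 1 but which does not carry the gene's name, differed by 2.35, on the same side as Tff2. Its position is written in the direction opposite to those of the Tff1, Tff2 and Tff3 probes. The Tff1 probe is annotated with the RefSeq transcript of Tff1, and AK050258 with a cDNA clone. Whether AK050258 or the Tff1 probe reports Tff1 was not tested.

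**Figure D2:**
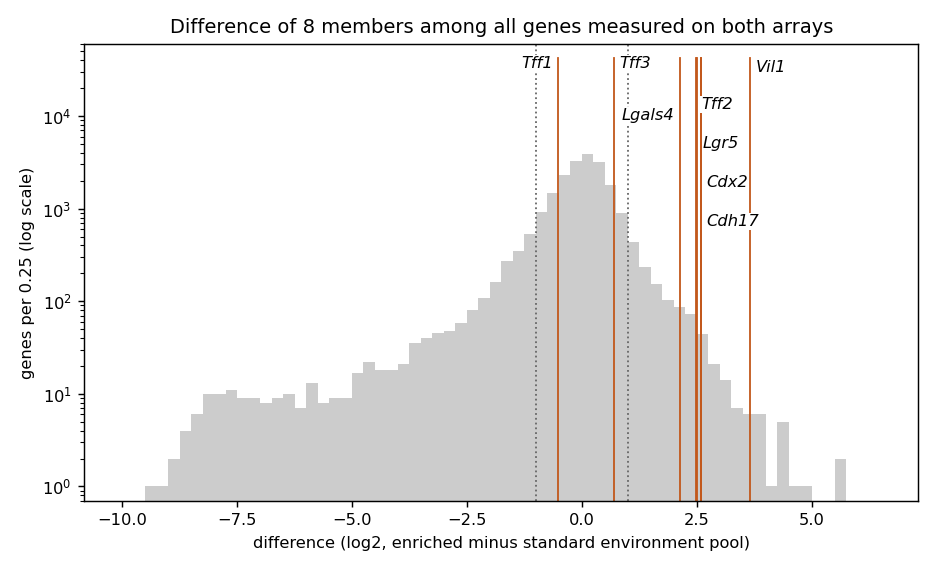
Difference between the enriched and the standard environment pool (x axis, log2) for all 20855 measured genes as grey bars (y axis, number of genes per 0.25, log scale) and for 8 members as orange lines. Dotted lines mark 2-fold. The lines of Tff2, Lgr5, Cdx2 and Cdh17 nearly coincide, between 2.48 and 2.59, Vil1 lies at 3.67, and Tff1 and Tff3 lie within the dotted lines.

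Under the reported processing 4 of the 6 higher members had nearly the same difference, with Vil1 above them and Lgals4 below. Tff2, Lgr5, Cdx2 and Cdh17 ranged from 2.48 to 2.59, and the 6 pairs that they form differed by less than their technical errors of 0.29 to 0.30. With normexp the same 4 genes spread further, with Tff2 at 2.38, Cdx2 at 2.21, Cdh17 at 2.10 and Lgr5 at 1.64. Vil1 was higher than Cdx2 by a further 1.08 on the log2 scale (error 0.25), a change of 2.11-fold in the ratio of the 2 genes, and higher than Lgals4 by 1.53 (error 0.21). Lgals4 lay below Cdx2 by 0.45 (error 0.25). For comparison, differences over a probe's repeated spots had an SD of 0.06 at the median of 198 probes, and the SD between a gene's separate probes had a median of 0.17. Neither measure includes the spread between mice. The member probes together took 0.0445% of the summed signal in the enriched and 0.00904% in the standard environment pool. The brightest of them in the enriched environment pool were the Tff2 probe at 13211 and an Lgals4 probe at 12052. These shares therefore follow Tff2 and Lgals4 more than the other members.

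General epithelial genes were also higher in the enriched environment pool. The carcinoma epithelium list had 26 measured genes, 19 of them higher by 2-fold or more and 2 lower by as much, the larger of these differences being Grhl2 at -2.14. Its median difference was 1.59, and that of all genes was 0.03. Muc4, a membrane mucin, differed by 2.44, the surface antigen gene Msln by 2.43, the epithelial cadherin Cdh1 by 2.38 and the keratin Krt8 by 2.14. All 26 genes were measured on both arrays, so RNA of these epithelial genes was present in both pools. The list was chosen with earlier results of these data known, so this is no independent check of the tumour label. The part of skin RNA in it was not tested. Vil1 exceeded the median of the list by 2.08, Cdh17 by 1.01, Lgr5 by 0.92, Tff2 by 0.89 and Lgals4 by 0.56, while Tff3 and Tff1 lay -0.89 and -2.10 from it. Vil1, Cdh17, Cdx2, Lgr5 and Tff2 lay above every gene of the list, a comparison added after the data were seen. This count was 5 as reported and 1, Vil1, with normexp background correction and with quantile normalisation. It also depends on which epithelial genes the list holds. Of the 9 measured keratinocyte genes, a separate list with a median of 1.40, Krt17 at 4.42 lay above Vil1. Krt14 at 3.15 lay above Cdh17, Cdx2, Lgr5 and Tff2, and the next keratinocyte gene was Krt5 at 2.01. The part of epithelial RNA in the members' differences was not tested.

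Intestinal transcription factors other than the caudal genes leaned the same way. Among the 17 measured, 7 reached 2-fold in the direction of the enriched environment pool and 0 in the other, and the list had a median of 0.81. With normexp the count was 4 and the median 0.29. Nr1h4, the bile acid receptor FXR, was at -0.01 in the enriched and -2.30 in the standard environment pool, a difference of 2.29. Klf5, a factor of proliferating crypt cells, differed by 1.82, Elf3 by 1.42, Hnf4a by 1.35 and Hnf4g by 1.21. The 3 probes of Hnf4a did not agree, with an SD of 1.25 between their differences. Hnf4a and Hnf4g were dim, with standard environment levels of -4.58 and -5.49 against a lowest level well above background of -5.69.

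Genes of the absorptive surface did not move with Vil1 and Cdh17 as a group. The brush border and absorption list had 25 measured genes, of which 3 were 2-fold or more higher, 3 were 2-fold or more lower and 19 were neither. Its median was -0.21 and lay between -0.30 and 0.02 over the alternatives. Gpa33, an antigen of intestinal cell surfaces, differed by 2.30 over 2 probes, the gut keratin Krt20 by 1.88 and the protocadherin Cdhr5, which links microvilli, by 1.06 with an SD of 1.43 between its 2 probes. Slc2a5, a fructose carrier, was 4-fold lower, and Sis (sucrase-isomaltase) and Car4, a membrane carbonic anhydrase, differed by -1.61 and -1.52. Classical enterocyte genes were among the 8 that were not well above background on either array, including Fabp1, Slc5a1 and Apoa1. Vil1 and Cdh17 were thus higher in a pool in which most genes of the mature enterocyte were dim or less than 2-fold apart.

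**Figure D3:**
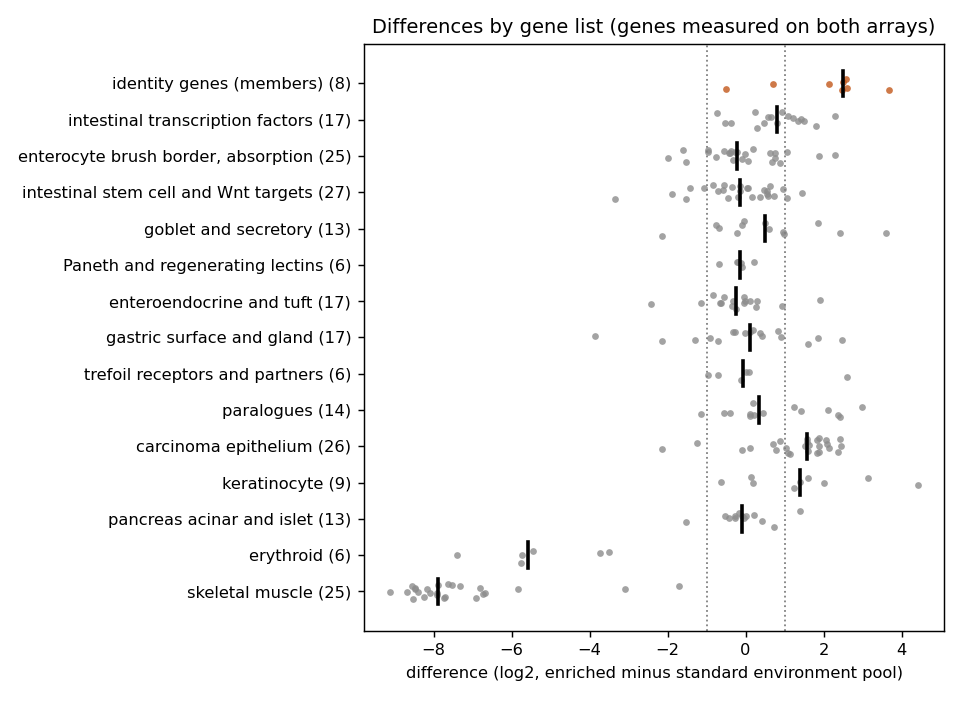
Difference between the enriched and the standard environment pool (x axis, log2) of each gene measured on both arrays, by list (y axis, number of genes in parentheses). Black bars are medians, and dotted lines mark 2-fold. The members have a median of 2.49, carcinoma epithelium 1.59, keratinocyte genes 1.40 and intestinal transcription factors 0.81. The lists of absorptive, stem cell, endocrine and gastric genes lie around 0 and skeletal muscle at -7.90.

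Genes that accompany Lgr5 in the crypt did not share its difference. Stem cell genes and Wnt targets, 27 measured, had 2 genes higher by 2-fold or more, Cd44 at 1.45 and Cdca7 at 1.05, and 5 lower by as much. Their median was -0.14, and the count of lower genes was 3 with normexp and 9 without the filter on dim probes. Tnfrsf19 differed by -3.34, Slc14a1 by -1.89, Lgr6 by -1.52, Smoc2, a matrix protein of crypt stem cells, by -1.43 and Hopx by -1.08. Skeletal muscle and erythroid genes were lower too, with list medians of -7.90 and -5.58. The part of RNA from other tissues in these 5 lower values was not tested. Axin2, a feedback target of Wnt signalling, differed by -0.15, the stem cell factor Ascl2 by -0.82, and Rnf43 and Znrf3, which remove Wnt receptors, by 0.57 and 0.55. Cdca7 and these 4 genes were picked after their values were seen. Of the related receptors, Lgr4 differed by 0.06.

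Secretory genes of the gut held a few large differences beside Tff3. Goblet and secretory genes, 13 measured, had 3 higher by 2-fold or more and 1 lower by as much. Their median of 0.50 ranged from -0.22 to 0.78 over the alternatives, so the list has no settled direction, and the higher count was 5 with quantile normalisation and with values from the authors' deposited table. Muc3, a membrane mucin of the intestine, was at -1.91 in the enriched and -5.51 in the standard environment pool, a difference of 3.60 from a level near the lowest well above background. Pigr, which carries antibodies across epithelium, differed by 2.43 and Clca1, a secreted goblet cell protein, by 1.86, whereas Agr2, a chaperone needed for mucin, differed by -2.14. Muc2, the main gel-forming mucin of goblet cells, differed by 0.60, and Tff3 by 0.69; Muc2 was picked after its value was seen. Of the Paneth and regenerating lectin genes 0 of 6 measured were 2-fold apart, but Reg1 and Reg3g were well above background in the enriched environment pool alone, at least 43.2-fold and at least 21.3-fold brighter there. In the list of endocrine and tuft cells, with 17 measured genes and a median of -0.25, 1 gene was higher by 2-fold or more, Dclk1 at 1.91, and 2 were lower, Gfi1b at -2.43 and Avil at -1.15. With normexp these counts were 0 and 1, and the higher count was 2 with quantile normalisation, without the filter on dim probes and with the authors' deposited table. Trpm5, of the same list, was well above background in the enriched environment pool alone, at least 3.25-fold brighter there.

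Gastric genes beside the trefoil factors were split. The list had 17 measured genes, 3 of them higher and 3 lower by 2-fold or more. Its median was 0.10 and ranged from -0.17 to 0.42 over the alternatives, and with normexp 1 gene was lower by 2-fold or more. Anxa10, an annexin of gastric epithelium, differed by 2.47, close to Tff2 at 2.48, Muc1, a membrane mucin, by 1.86 over 2 probes, and Vsig1, an adhesion gene of the stomach, by 1.61. Ctse, cathepsin E of gastric cells and also of red cells, differed by -3.85, Kcne2, a potassium channel subunit, by -2.13, and the chitinase gene Chia1 by -1.31. Of the further genes of stomach identity, Gkn1, Gkn2, Pgc and Cldn18 were not well above background on either array. The erythroid list, which can share Ctse, had a median of -5.58, with all 6 measured genes lower by 2-fold or more, and its part in the Ctse value was not tested.

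Paralogues and partners showed which relatives of the members differed too. In the gelsolin family, Vill, the villin-like gene, differed by 1.41, Capg by 0.46, Scin by 0.13, Gsn by -0.40 and Avil by -1.15. Cdh16, the cadherin nearest to Cdh17, differed by -0.56. Among galectins, Lgals7 differed by 2.98, Lgals12 by 2.42, Lgals2 by 2.38 and Lgals3 by 1.24, whereas Lgals1, Lgals8 and Lgals9 differed by 0.12, 0.22 and 0.19. Of receptors and partners linked to trefoil peptides, F2rl1, a protease-activated receptor, differed by 2.61 from a dim standard environment level of -5.06, while the other 5 measured were less than 2-fold apart. Egfr differed by 0.08, Cxcr4 by 0.00, Ackr3 by -0.12, Dmbt1 by -0.72 and F2rl3 by -0.97. Lingo3 was well above background in the standard environment pool alone, at least 22.7-fold brighter there.

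Neighbouring genes on the chromosomes mostly did not share the members' differences. The nearest 2 genes with a probe on each side of the 9 members, by order on GRCm38.p6, comprised 28 genes outside the set, of which 25 were measured. Among these, 3 were higher and 3 lower by 2-fold or more, and the median was 0.15. Over all measured genes the shares were 5.73% higher and 9.46% lower. All 3 higher genes were among the 20 measured next to the 6 higher members, whose median was 0.23. The 3 higher were Lgals7 beside Lgals4 at 2.98, and Tspan8, a tetraspanin of gut epithelium, at 1.44 and Ptprr, a tyrosine phosphatase, at 2.38 beside Lgr5. The 3 lower were Camk2a, a kinase gene, at -6.14 and Pdgfrb, a growth factor receptor gene, at -1.17 beside Cdx1, and Pdp1, a phosphatase gene, at -1.06 beside Cdh17. The genes next to Vil1, Ctdsp1 and Usp37, differed by 0.38 and 0.65, and Pdx1, the pancreatic factor next to Cdx2, by 0.72. Tmprss3, next to Tff1, differed by -0.55. Genes of acinar and islet cells, the other cells of the pancreas, had a median of -0.10 over 13 measured, with Prss2 at 1.40 and Rbpjl at -1.53 the only 2 that were 2-fold or more apart.

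**Figure D4:**
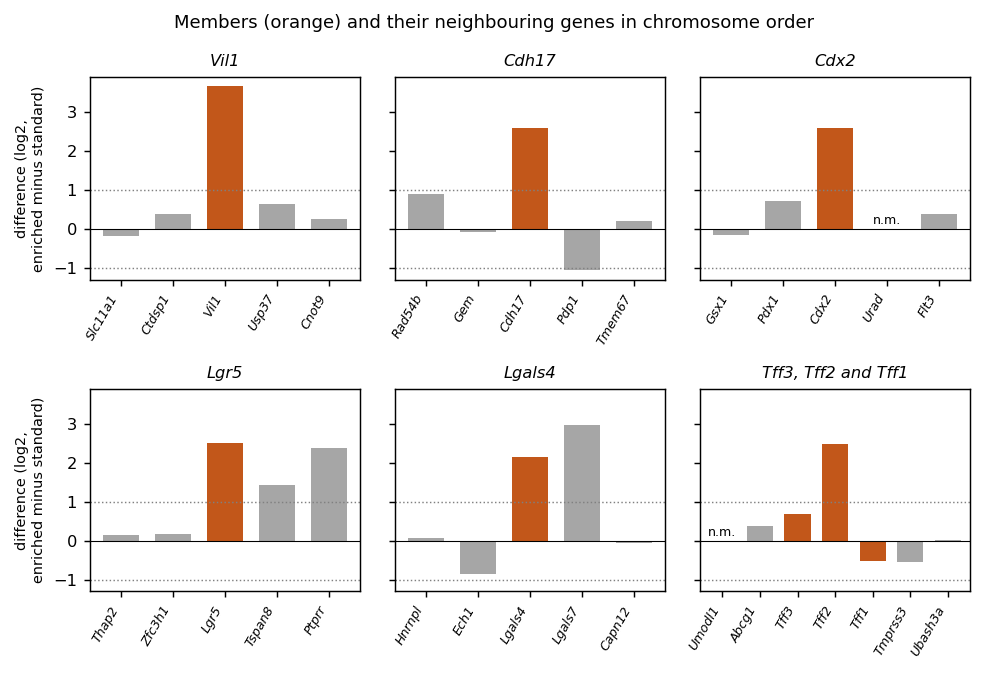
Difference between the enriched and the standard environment pool (y axis, log2) of members (orange) and of the nearest genes with a probe (grey), in chromosome order along the x axis with no distances drawn. Genes marked n.m. were not measured on both arrays, and dotted lines mark 2-fold. Vil1 at 3.67 and Cdx2 at 2.59 stand among neighbours under 1, and Tff2 at 2.48 stands between Tff3 at 0.69 and the named Tff1 probe at -0.51.

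Markers of other tissues also differed between the pools. All 25 skeletal muscle genes were lower by 2-fold or more in the enriched environment pool, led by Ckmt2 at -9.11, with a median of -7.90, and the list took 0.109% of the summed signal there and 5.36% in the standard environment pool. Among 9 measured keratinocyte genes 6 were higher by 2-fold or more, with Krt17 at 4.42 and Krt14 at 3.15, and a median of 1.40 that was 0.23 at its lowest over the alternative processings. The part of muscle, blood and skin RNA in the members' differences was not tested. With the 75th percentile taken outside these 3 lists, the members' median was 2.48. That setting changes the scaling alone and cannot take out RNA of other tissues, so it does not bear on that part. Of all spots that are not controls, 77.4% were well above background in the enriched and 77.2% in the standard environment pool, and 0 were saturated.

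The members kept their direction under the 9 alternative processings. Vil1 ranged from 3.07 to 3.78, Cdh17 from 2.10 to 2.65, Cdx2 from 2.21 to 2.66, Lgals4 from 2.04 to 2.19 and Tff2 from 2.38 to 2.58. Tff3 ranged from 0.67 to 0.73 and Tff1 from -0.53 to -0.48, both within 2-fold throughout. Lgr5 had the widest range, from 0.99 to 2.67.

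**Figure D5:**
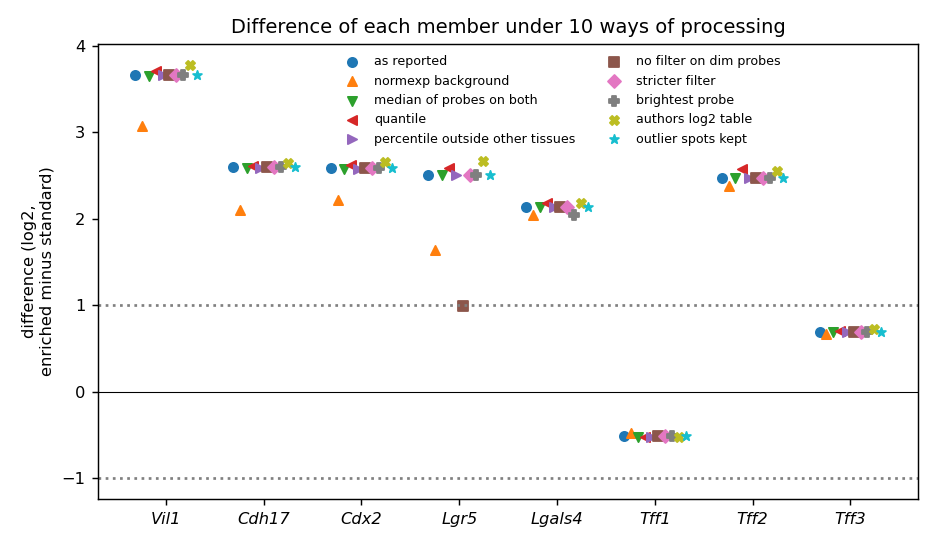
Difference between the enriched and the standard environment pool (y axis, log2) of 8 members under the reported processing and 9 alternatives, 1 symbol each. Dotted lines mark 2-fold. Lgr5 without a filter on dim probes, at 0.99, is the single case in which a member higher than 2-fold lies under the line, and normexp gives the lowest value for Vil1, Cdh17 and Cdx2.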

How the data were processed

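Scanner images were quantified by Agilent Feature Extraction (version 10.7.1.1 in the submitters' processing notes). The deposited scanner files hold a linear intensity for each spot, with spatial and multiplicative detrending switched on per the file headers, and an error and marks for spots well above background. The authors' deposited table of log2 values for 30319 probes, made by steps that no source used here states, correlated with log2 processed intensity with r = 1.00 on both arrays, so scale and direction are settled while the centring is unstated (medians 8.56 for the enriched and 8.54 for the standard environment pool); it was used as an alternative.

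From log2 processed intensity the log2 of each array's 75th percentile was subtracted, 983.8 for the enriched and 753.4 for the standard environment pool. Control and outlier spots were left out, spots of a probe and probes of a gene were averaged, and a gene was measured where a probe was well above background on both arrays (20855 genes). Where this held on 1 array only, the fold is a bound, taken against the dimmer array's lowest signal well above background, or the dim probe itself if higher. Current symbols came from RefSeq accessions for 22951 probes, and 18223 kept the file's name. Probe positions are on mm7, whose annotation was not used here. There was no p-value, with 1 array per group, and called means at least 2-fold. The members and lists were chosen with earlier results of these data known. All members were named, with up to 6 genes of a list that were 2-fold or more apart and had the largest differences, paralogues, partners and neighbours, and up to 3 genes well above background on 1 array only. Other genes named were chosen after their values were seen, among them Axin2, Ascl2, Rnf43, Znrf3, Cdca7 and Muc2. Some genes of the lists are not reported here by name. The steps were tested on simulated data (Python 3.11.15, numpy 2.4.6, pandas 2.3.3, limma 3.58.1).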

Additional observations from a re-analysis of the deposited data

How the results depend on the processing

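With 1 array per pool nothing bounds the spread between mice, and genes near the background are limited by their low signal. Of the 9 alternatives, the count of members at least 2-fold higher was 6 in all but the one without a filter on dim probes, where it was 5 because the dim Lgr5 probe was averaged in. Without that filter 1 member, Cdx1, was at least 2-fold lower, at -1.73 from signals not well above background, the median of the members was 2.14, and 3792 genes were at least 2-fold lower against 1972 as reported. With normexp background correction, whose offset of 50 compresses dim genes, the median of the members was 2.07 and 669 genes were at least 2-fold higher against 1194 as reported. Counts of a list that moved by over 1.5 times and are not given above were, with normexp, 1 lower in carcinoma epithelium (2 as reported), 0 lower among paralogues (1) and 0 higher among pancreas genes (1). Without the filter they were 2 higher and 3 lower among Paneth and regenerating lectin genes (0 and 0), 1 lower among trefoil partners (0), 2 lower among pancreas genes (1), 3 lower among keratinocyte genes (0), 3 lower among goblet and secretory genes (1) and 1 lower among intestinal transcription factors (0). The median difference of all genes lay between -0.11 and 0.12. Of the members, list medians and counts recomputed under these alternatives, none that was 2-fold or more apart as reported changed direction. No paired analysis was possible because each housing has 1 pooled sample and the result comes from no test.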

Other observations

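A further probe in the trefoil region did not follow the Tff1 probe. The probe named AK050258 (chromosome 17, 29357841 to 29357900), from a liver tumour cDNA clone that the array's annotation describes as trefoil factor 1, had an intensity of 223.8 in the enriched and 33.66 in the standard environment pool, a difference of 2.35 (error 0.24) or 5.09-fold. Its position is written in the direction opposite to those of the Tff1, Tff2 and Tff3 probes. For Vil1, Cdx2 and Lgals4 the direction of the probes was the strand of the gene. AK050258 does not carry the name of Tff1, was not counted as a member and was looked up after the other values were seen. The data therefore hold a pair of probes with a Tff1 description that differ in sign. The probe named Tff1 is annotated with the RefSeq transcript of Tff1, and AK050258 with the clone alone. Which of the pair reports the Tff1 transcript was not tested.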
